A study of Mus musculus with 30 samples.

Results

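Adamts genes encode secreted zinc metalloproteases that cut proteins of the extracellular matrix. The 10 followed here, Adamts1, Adamts2, Adamts4, Adamts5, Adamts6, Adamts7, Adamts9, Adamts12, Adamts14 and Adamts15, were chosen by name from the 35972 genes shared by both RNA tables. The choice was made with earlier results of these data known, so counts of called genes among the 10 are not independent of the data. All 10 passed the filter on low values, a mean normalised count of at least 10. Chromatin sites were included where the deposited annotation named one of these genes, which gave 56 of the 16367 entries in 5 lists of sites.

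The cells were primary fibroblasts of mouse tail tendon with wildtype genotype, kept in medium with 0.1% serum. For RNA there were 3 libraries with the solvent DMSO, 3 with 10 µM blebbistatin, which inhibits non-muscle myosin II, and 3 with 30 µM Y27632, a kinase inhibitor, and both drugs lower contractile force. ATAC libraries, which mark open chromatin, followed the same groups with 3 libraries each. A further 12 genomic DNA libraries, 3 per group and with no assay named for them beyond the ATAC protocol, had DMSO, 10 µM blebbistatin, doxycycline at 10 ng/mL, or both drugs. The labels do not state what doxycycline induced in these cells, nor how long any treatment lasted.

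Adamts proteases are made as inactive precursors, lose a propeptide to furin-like convertases, and bind matrix through thrombospondin repeats. Adamts1, Adamts4, Adamts5, Adamts9 and Adamts15 cut large hyaluronan-binding proteoglycans such as versican and aggrecan. Adamts2 and Adamts14 remove the aminopropeptide of fibrillar procollagens, a step before collagen fibrils assemble in tendon. Adamts7 and Adamts12 cut cartilage oligomeric matrix protein (Comp), a protein abundant in tendon, and Adamts6 acts in fibrillin-rich microfibrils. Tissue inhibitors of metalloproteinases hold the family in check, and Timp3 is the main one for the proteoglycan-cutting enzymes.

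The upstream sequences of Adamts12 and Adamts1 are shown because chromatin or sequence data bear on them. RefSeq promoter windows (GRCm38.p6) were matched for 5 of the 10 genes, Adamts1, Adamts2, Adamts9, Adamts12 and Adamts14. The 250 bases upstream of the start are printed 5′ to 3′ on the gene's strand for Adamts12 (chr15:11064523-11064772, plus strand), whose window lay inside a site that was higher with doxycycline, and for Adamts1 (chr16:85803114-85803363, minus strand), with a TATA box in capitals.
Adamts12: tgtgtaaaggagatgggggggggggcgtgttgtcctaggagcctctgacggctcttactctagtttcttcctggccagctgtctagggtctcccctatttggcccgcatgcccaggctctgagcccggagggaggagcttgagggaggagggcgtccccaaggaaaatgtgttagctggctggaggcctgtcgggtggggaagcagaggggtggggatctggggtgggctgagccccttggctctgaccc
Adamts1: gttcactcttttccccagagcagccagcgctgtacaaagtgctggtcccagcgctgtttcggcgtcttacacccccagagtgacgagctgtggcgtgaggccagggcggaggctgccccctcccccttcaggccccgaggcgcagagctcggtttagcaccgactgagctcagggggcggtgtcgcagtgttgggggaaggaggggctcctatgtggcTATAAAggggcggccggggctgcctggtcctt
The TATAAA of Adamts1 lies 32 to 27 bases before the start. Both strands of the 5 windows were searched for GGAATG, the core bound by TEAD factors, TGANTCA, bound by AP-1, TATAAA, and the CArG box of serum response factor. The TATAAA of Adamts1 was the only match. Over all 32851 RefSeq windows of this length, 12.6% held GGAATG, 6.75% TGANTCA, 12.4% TATAAA and 1.47% a CArG box. A CArG box can contain TATAAA.

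Some further short sequences are shown because they mark the TEAD motif that the authors' list of ATAC sites under blebbistatin records within sites of Adamts5 and Adamts6. Capitals mark the GAATG core, and the position of each is counted by the authors' annotation within the site. This core is shorter than the GGAATG searched for in the promoter windows, and the Adamts6 stretch below holds no GGAATG. The promoter search and these marks are therefore not comparable.
Adamts6 site, chr13:104542918-104543521: aaGAATGcag
Adamts5 site, chr16:86243593-86243698: agGAATGtta
Adamts5 site, chr16:86180132-86180412: agGAATGttt
Of the 5 sites of these genes in that list, 3 (60.0%) carried such a mark, against 603 of all 970 sites in it (62.2%).

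Library depth was 23375386 to 37061737 reads in genes, and every pair of replicates differed by more than sampling noise (chi-square per degree of freedom 2.63 to 8.06). All 9 fibroblast markers fixed for the check (Col1a1, Col1a2, Col3a1, Pdgfra, Pdgfrb, Thy1, Vim, Dcn and Lum) were detected, with a summed level of 36696 to 39625 CPM (read counts scaled to library size) over the 9 libraries. The sum of 6 tendon markers (Scx, Tnmd, Mkx, Fmod, Thbs4 and Egr1) was 1228 to 1278 CPM with DMSO, 1279 to 1413 with blebbistatin and 1548 to 1578 with Y27632. Thbs4 was the largest part, at 957 to 1164 CPM over the 9 libraries. Egr1 was at 24.4 to 35.6 CPM with DMSO, 91.2 to 135.4 with blebbistatin and 162.3 to 188.1 with Y27632. The 6 did not move together: under blebbistatin limma called 3 higher and 1, Tnmd, lower (-0.24, limma adjusted p = 0.0181). Under Y27632 it called 4 higher and 0 lower. The sum of 7 leukocyte markers, of which none was at 0, was 230.7 to 253.3 CPM with DMSO, 346.8 to 386.9 with blebbistatin and 334.6 to 379.3 with Y27632. Limma called 6 of those 7 higher under each inhibitor, and the sums overlapped between the inhibitors. Over all genes tested, limma called 26.1% higher and 26.9% lower under blebbistatin, and 18.1% and 17.8% under Y27632. Low sums also moved: 4 Schwann cell markers summed to 7.23 to 8.84 CPM with DMSO, 13.9 to 14.999 with blebbistatin and 8.55 to 10.8 with Y27632 (S100b and Sox10 called higher under blebbistatin, Sox10 under Y27632). The 5 chondrocyte markers summed to 5.30 to 6.39, 8.33 to 9.10 and 8.20 to 8.44 CPM in that order (Sox9 called higher under both), and 4 adipocyte markers to 9.64 to 11.2, 10.2 to 11.96 and 6.54 to 7.82 CPM (Fabp4 called lower under Y27632). Endothelial, keratinocyte and skeletal muscle markers summed to at most 4.62, 3.35 and 1.93 CPM in any library, with the muscle genes Ckm and Myod1 at 0 in all. The part of other cell types in the results below was not tested. Several of the Adamts genes overlap other RefSeq genes, and since the use of strand in counting is not stated, reads of overlapping stretches cannot be told apart. Nothing in the labels says that libraries of a group came from separate animals or cultures, so p-values measure only the spread between these libraries, which may be technical.

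Under blebbistatin the large movements were among the proteoglycan-cutting enzymes, and they went in opposite directions. Adamts5, Adamts1 and Adamts9 fell to 28.9%, 33.0% and 36.6% of their DMSO level, while Adamts15 rose 11.6-fold and Adamts4 did not pass the test. Limma called 9 of the 10 genes at an adjusted p under 0.05 (Benjamini-Hochberg over all genes tested), 4 higher and 5 lower, against 53.0% of all 14882 genes tested (26.1% higher and 26.9% lower). An absolute log2 change of at least 1 was reached by 4 of the 10, against 6.57% of all genes. The median log2 change of the 10 was -0.04, beside 0.00 over all genes. Under Y27632 limma called 8 of the 10, 3 higher and 5 lower, against 35.9% of 14833 genes (18.1% higher and 17.8% lower), and 2 of the 10 had an absolute log2 change of at least 1, against 2.08% of all genes. Here the median of the 10 was -0.11, beside 0.00 over all genes. Both comparisons use the same DMSO libraries. In bulk RNA, fewer cells of a type and less RNA per cell cannot be told apart.

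**Figure D1:**
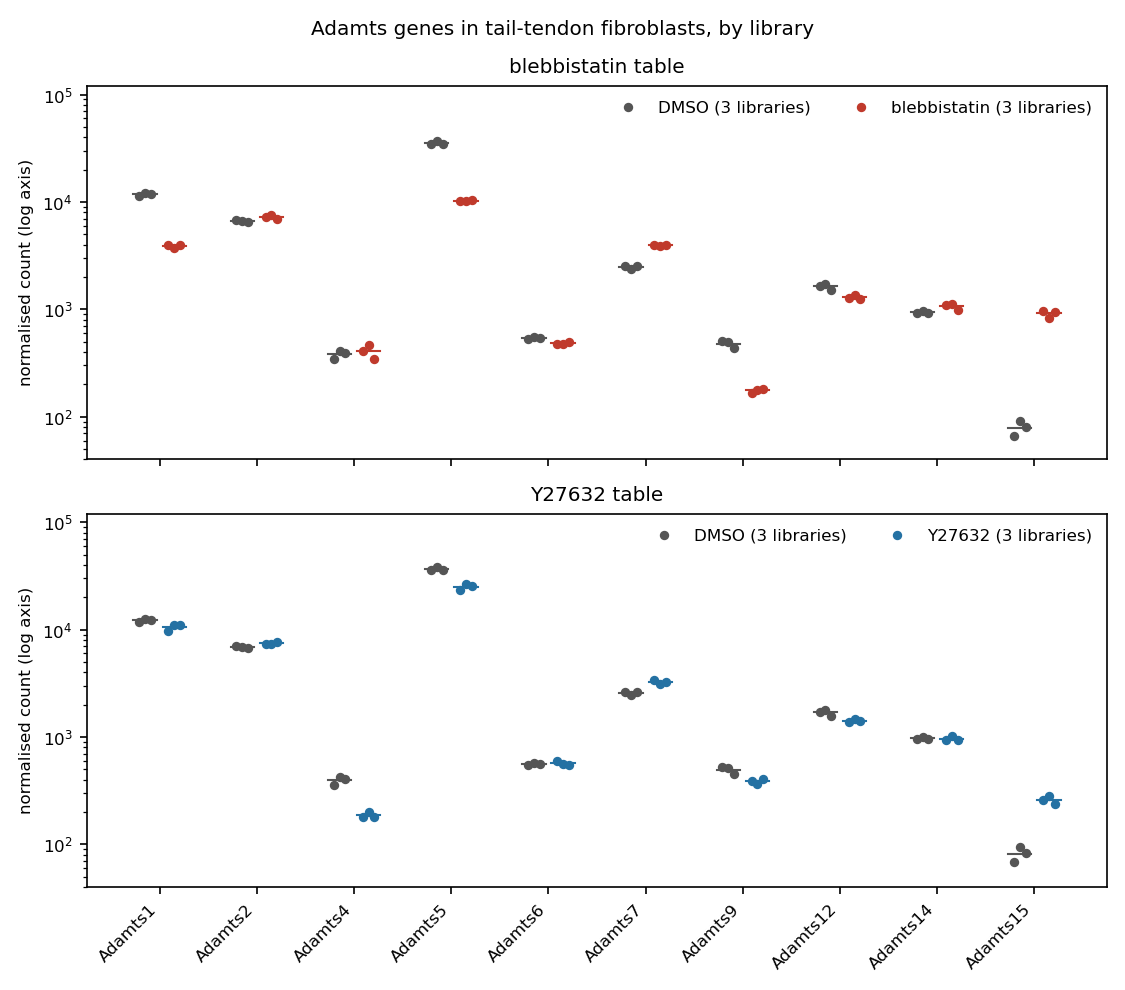
Normalised count of each of the 10 Adamts genes (log axis) in every RNA library, with DMSO and blebbistatin in the upper panel and DMSO and Y27632 in the lower. Points are single libraries and lines are means of 3. Adamts15 sits at 66.5 to 90.5 with DMSO and 837.8 to 962.9 with blebbistatin. The 2 tables were normalised separately, so heights are compared within a panel, and levels of different genes are not corrected for length.

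Adamts5, a main aggrecan-cutting enzyme in mouse cartilage, had normalised counts of 34852, 36966 and 34422 in the DMSO libraries and 10239, 10108 and 10397 with blebbistatin. In the Y27632 table it had 36232, 38376 and 35771 with DMSO and 23356, 26385 and 25246 with Y27632. In both tables every treated library lay below every DMSO library, and the blebbistatin libraries stood farther down than those with Y27632. The log2 change was -1.79 with blebbistatin (standard error 0.033, limma adjusted p = 2.61e-12) and -0.56 with Y27632 (standard error 0.043, limma adjusted p = 6.20e-07). Compared directly, blebbistatin stood below Y27632, with an edgeR quasi-likelihood log2 difference of -1.22 (standard error 0.042, adjusted p = 2.71e-11).

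Adamts1, its neighbour on chromosome 16, cuts versican and aggrecan. Its normalised counts were 11349, 12110 and 11732 with DMSO and 3934, 3734 and 3931 with blebbistatin. With Y27632 they were 9804, 11157 and 10938, beside 11798, 12572 and 12192 for DMSO in that table. The fall was large with blebbistatin, and with Y27632 the groups were apart by a small margin. On the log2 scale Adamts1 changed by -1.60 with blebbistatin (standard error 0.035, limma adjusted p = 7.10e-12) and -0.20 with Y27632 (standard error 0.045, limma adjusted p = 0.00374). The difference between the inhibitors was -1.39 (standard error 0.045, edgeR adjusted p = 1.69e-11). RefSeq (GRCm38.p6) places Adamts1 at chr16:85793827-85803113 and Adamts5 at chr16:85858157-85901125, 55.0 kb apart with 0 protein-coding genes between them.

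Adamts9, a versican-cutting enzyme of broad expression (chr6:92772699-92944450), had normalised counts of 503.4, 494.2 and 440.0 with DMSO and 167.2, 178.4 and 181.0 with blebbistatin. In the other table it had 523.3, 513.0 and 457.2 with DMSO and 387.9, 364.8 and 409.8 with Y27632. No treated library reached a DMSO library in either table. Adamts9 changed by -1.44 with blebbistatin on the log2 scale (standard error 0.081, limma adjusted p = 1.79e-08) and -0.36 with Y27632 (standard error 0.072, limma adjusted p = 0.00174), and the edgeR difference was -1.07 (adjusted p = 5.36e-08). Adamts5, Adamts1 and Adamts9 therefore shared 1 order, DMSO above Y27632 above blebbistatin, with each step called.

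Adamts15, another proteoglycan-cutting enzyme (chr9:30899155-30922452), went the other way. Its normalised counts were 66.5, 90.5 and 80.4 with DMSO and 962.9, 837.8 and 948.2 with blebbistatin. With Y27632 they were 261.6, 281.6 and 240.0, beside 69.2, 93.9 and 83.6 with DMSO. Every blebbistatin library was far above every DMSO library, and the Y27632 libraries lay in between. Behind these values stand 67, 82 and 70 reads with DMSO, 927, 1019 and 1032 with blebbistatin and 348, 318 and 229 with Y27632. In log2 terms the change was 3.53 with blebbistatin (standard error 0.110, limma adjusted p = 1.10e-10) and 1.66 with Y27632 (standard error 0.124, limma adjusted p = 4.60e-07). The ratios of the group means were 11.6 and 3.18. The inhibitors differed by 1.87 (standard error 0.083, edgeR adjusted p = 3.20e-10).

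Adamts4, the second well-known aggrecanase (chr1:171250129-171262267), fell under Y27632 and did not pass the test under blebbistatin. It had normalised counts of 361.3, 420.3 and 404.7 with DMSO and 179.7, 201.0 and 181.3 with Y27632. In the blebbistatin table the values were 347.5, 404.8 and 389.4 with DMSO and 411.3, 466.2 and 341.8 with blebbistatin. The Y27632 libraries lay at 47.4% of the DMSO mean with no overlap, while the blebbistatin and DMSO libraries overlapped. The log2 change was -1.07 with Y27632 (standard error 0.085, limma adjusted p = 8.08e-07) and 0.09 with blebbistatin (95% interval -0.14 to 0.31, limma adjusted p = 0.519). The inhibitors differed by 1.19 (standard error 0.108, edgeR adjusted p = 4.94e-07).

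**Figure D2:**
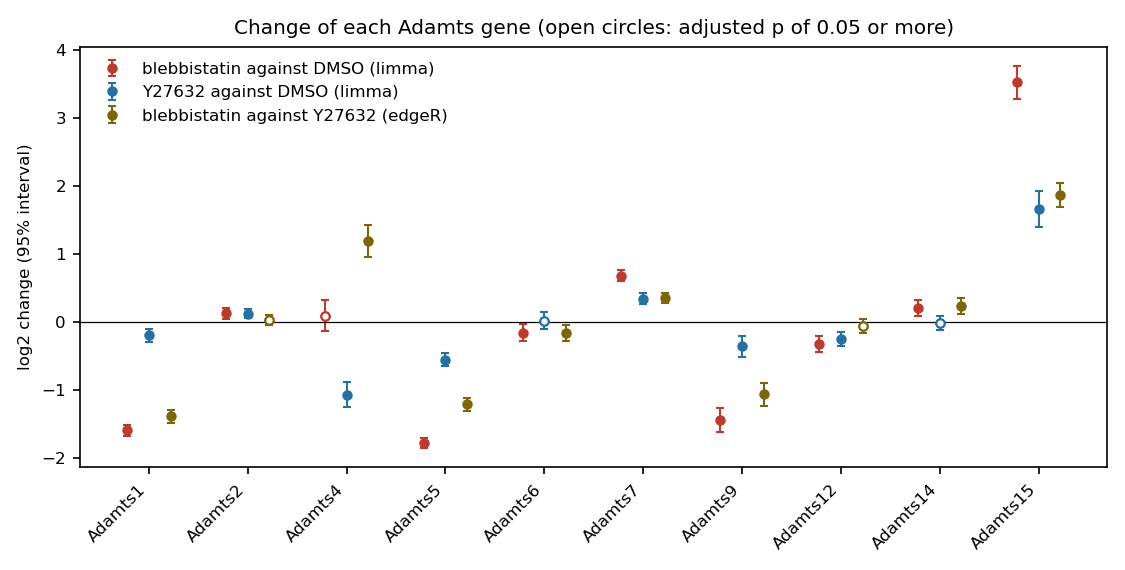
Log2 change of each gene (vertical axis, points with 95% intervals) for blebbistatin against DMSO, Y27632 against DMSO (both limma) and blebbistatin against Y27632 (edgeR). Open circles did not pass an adjusted p of 0.05. Adamts15 is highest under both inhibitors, Adamts5 is lowest under blebbistatin and Adamts4 is lowest under Y27632.

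The procollagen aminopropeptidases Adamts2 and Adamts14 moved little. Adamts2 (chr11:50602085-50807573) had 6624 ± 147 (SD, n = 3) normalised counts with DMSO and 7220 ± 323 with blebbistatin. In the other table it had 6882 ± 153 with DMSO and 7455 ± 178 with Y27632. Its libraries did not overlap in either table. The log2 change was 0.12 under both inhibitors (limma adjusted p = 0.0136 and 0.0115), and the direct difference of 0.02 did not pass the test (95% interval -0.05 to 0.09, edgeR adjusted p = 0.623). The call was lost without blebbistatin library 2 (0.09, limma adjusted p = 0.0518) and, for the other inhibitor, without Y27632 library 3 (0.10, limma adjusted p = 0.0570).

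Adamts14, the close relative of Adamts2 (chr10:61197112-61273419), had 922.4, 957.5 and 927.1 normalised counts with DMSO and 1107, 1128 and 995.0 with blebbistatin. This was a rise to 115% of the DMSO mean (log2 change 0.20, limma adjusted p = 0.00763). With Y27632 the libraries, at 935.1, 1011 and 935.0, overlapped those of DMSO, at 958.9, 994.0 and 963.4. The log2 change there was -0.02 (95% interval -0.12 to 0.08, limma adjusted p = 0.798), and the inhibitors differed by 0.23 (edgeR adjusted p = 0.00216).

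The pair that cuts Comp split in direction under both inhibitors. Adamts7 (chr9:90162904-90200102) had 2518, 2386 and 2505 normalised counts with DMSO and 3991, 3858 and 3997 with blebbistatin. In the other table it had 2618, 2477 and 2604 with DMSO and 3365, 3138 and 3231 with Y27632. Every treated library was above every DMSO library. Its log2 changes were 0.68 with blebbistatin (limma adjusted p = 9.41e-09), 0.34 with Y27632 (limma adjusted p = 1.75e-05) and 0.35 between the inhibitors (edgeR adjusted p = 1.40e-06).

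Adamts12 (chr15:11064773-11349232) had 1646, 1729 and 1526 normalised counts with DMSO and 1283, 1363 and 1258 with blebbistatin. In the other table it had 1711, 1795 and 1585 with DMSO and 1378, 1477 and 1417 with Y27632. The treated libraries lay below those of DMSO each time, at 79.7% and 83.9% of the DMSO mean. The log2 change was -0.33 with blebbistatin (limma adjusted p = 0.000193) and -0.25 with Y27632 (limma adjusted p = 0.00142). The direct difference of -0.06 did not pass the test (95% interval -0.17 to 0.05, edgeR adjusted p = 0.321).

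Adamts6 (chr13:104286518-104496695) had 532.2, 556.0 and 535.3 normalised counts with DMSO and 476.8, 477.7 and 497.1 with blebbistatin, with no overlap. The log2 change of -0.16 passed the limma test (95% interval -0.28 to -0.04, adjusted p = 0.0303). DESeq2 on the reads did not call it (-0.16, adjusted p = 0.118), nor did limma without DMSO library 2 or 3 or without blebbistatin library 1 or 2 (adjusted p 0.0529 to 0.100). With Y27632 the counts of 598.4, 562.3 and 546.1 overlapped those of DMSO, 553.3, 577.2 and 556.3, with a log2 change of 0.02 (95% interval -0.11 to 0.14, limma adjusted p = 0.852). The inhibitors differed by -0.17 (edgeR adjusted p = 0.0170), a call lost in DESeq2 (adjusted p = 0.0551) and without Y27632 library 1 (-0.13, edgeR adjusted p = 0.0906).

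Between the inhibitors edgeR called 8 of the 10 genes, 4 higher with blebbistatin (Adamts4, Adamts7, Adamts14 and Adamts15) and 4 lower (Adamts1, Adamts5, Adamts6 and Adamts9), against 53.1% of 14955 genes (26.9% higher and 26.2% lower). An absolute log2 difference of at least 1 was reached by 5 of the 10, against 5.33% of all genes. Groups did not overlap for 9 genes under blebbistatin, where 60.2% of all genes tested did not, and for 8 under Y27632, where the share was 48.1%. In the authors' deposited tables, an adjusted p under 0.05 stood beside 8 of the 10 under each inhibitor, against 38.9% of the 17026 genes with an adjusted p there under blebbistatin and 28.8% of 14244 under Y27632. Adamts6, the gene called here under blebbistatin and not there, has an adjusted p of 0.147 in the authors' deposited table.

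For each gene, the 3 others whose log2 level ran closest to its own over the 9 libraries were found by Pearson's r among 14955 genes. The Adamts genes followed here were left out of this ranking, so their closeness to each other is not shown. These r values describe libraries that fall into the same 3 groups, and no p is given. Fst, which encodes follistatin, an activin-binding protein, ran closest to Adamts1 (r = 0.998), followed by Sbf2 and Adcyap1r1 (both 0.997). Closest to Adamts5 were Slc7a1, a transporter of cationic amino acids, Eprs, a transfer RNA synthetase, and Acss2, which makes acetyl-CoA (r = 0.998 or above for each). Adamts9 ran with Rbms3 (0.996), Foxp2 and Zfpm2 (both 0.995), of which the last 2 encode transcriptional regulators. Lhfpl2, Cpeb1 and Cpxm1 (each 0.997) were closest to Adamts15. Col5a3, a fibrillar collagen chain, was closest to Adamts4 (0.987), then Ddit4 (0.984) and Dctd (0.981). Adamts7 ran with the lysosomal thioesterase gene Ppt1 and the peptidase gene Pepd (both 0.998) and with Extl2 (0.997). For Adamts2 they were Man2b2 (0.994), Fam20c (0.992) and Lypla2 (0.99). For Adamts12 they were Atp10d (0.987), Wnt9a (0.977) and Ltbp1 (0.974). For Adamts14 they were Ido2 (0.983), Cc2d1a (0.981) and Rac3 (0.977). Adamts6 had the weakest matches, Eya2 (0.957), G3bp2 (0.933) and BC005561 (0.932).

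Around the proteases, the rest of the family held a gene that moved in opposite directions. For this list and those below, the background was 26.1% of all genes higher and 26.9% lower under blebbistatin. Under Y27632 it was 18.1% and 17.8%. No list was tested against these shares. Of 9 other Adamts genes 5 could be tested (Adamts8, Adamts13, Adamts17 and Adamts18 were too low), with 1 higher and 2 lower under blebbistatin and 3 higher and 0 lower under Y27632 by limma, and medians of -0.18 and 0.31. Adamts3, the third procollagen aminopropeptidase, went from 637.5 ± 50.3 (SD, n = 3) to 293.7 ± 8.47 normalised counts with blebbistatin (log2 change -1.11, limma adjusted p = 6.13e-08). With Y27632 it went from 662.3 ± 52.1 to 927.5 ± 35.7 (0.49, limma adjusted p = 4.90e-05). Adamts3 thus fell under blebbistatin while Adamts2 and Adamts14 rose slightly. Adamts20, at a mean of 23.0 normalised counts with DMSO, fell under blebbistatin (-0.89, limma adjusted p = 0.0217), and its Y27632 value of -0.90 did not pass the test (limma adjusted p = 0.0790). Adamts10, the close relative of Adamts6, rose by 0.13 and 0.14 (limma adjusted p = 0.0148 and 0.0196).

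Adamts-like proteins share the matrix-binding repeats and have no protease domain. Of 7 listed 6 could be tested, with 2 higher and 3 lower under blebbistatin, 2 higher and 2 lower under Y27632, and medians of -0.23 and -0.12. Adamtsl1 fell under blebbistatin (-1.03, limma adjusted p = 3.73e-08), and its Y27632 value of -0.03 did not pass the test (limma adjusted p = 0.732). Thsd4, a fibrillin-binding member, fell under both (-0.81 and -0.75, limma adjusted p = 0.00108 and 0.000728). Adamtsl5 rose by 0.69 and 0.19 (limma adjusted p = 1.05e-07 and 0.00198).

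Of 6 inhibitors, 3 were higher and 2 lower under blebbistatin, and 2 were higher and 2 lower of 5 tested under Y27632, with medians of 0.16 and 0.05. Timp3, the inhibitor of Adamts4 and Adamts5, fell from 11585 ± 171 (SD, n = 3) to 4587 ± 62.2 normalised counts with blebbistatin (-1.34, limma adjusted p = 7.10e-12). With Y27632 it fell by 0.26 on the log2 scale (limma adjusted p = 2.16e-05), and the inhibitors differed by -1.07 (edgeR adjusted p = 3.04e-12). The order of Timp3 was thus that of Adamts1, Adamts5 and Adamts9. Timp4 had 2, 0 and 3 reads with DMSO, 21, 33 and 37 with blebbistatin and 5, 8 and 3 with Y27632; its fitted log2 change under blebbistatin (limma adjusted p = 0.000102) depends on the pseudocount and is not given as a fold.

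Among the substrates, the proteoglycan Vcan (versican) fell under both inhibitors (-0.35 and -0.31, limma adjusted p = 1.34e-05 and 4.02e-05). Of its list of 6 hyaluronan-binding proteoglycans and link proteins 4 could be tested, with 2 lower under blebbistatin, 1 lower under Y27632 and 0 higher. Acan, which encodes aggrecan, had at most 4 reads in any library and was not tested. Of 6 procollagen genes, 4 were lower and 0 higher under blebbistatin, among them Col5a2 (-0.48, limma adjusted p = 2.78e-07) and Col1a1 (-0.25, limma adjusted p = 0.00115). Under Y27632 2 were lower and 1, Col3a1, was higher (0.12, limma adjusted p = 0.0220). The medians of the procollagen list were -0.19 and -0.04.

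Of 7 other substrates, 2 were higher and 4 lower under blebbistatin, and 2 were higher and 1 lower under Y27632. Comp rose under both (0.60 and 0.56, limma adjusted p = 3.04e-05 and 0.000138), beside Adamts7, which rose, and Adamts12, which fell. Thbs1, which encodes the matricellular protein thrombospondin-1, fell by 2.31 on the log2 scale with blebbistatin (limma adjusted p = 1.15e-11) and by 0.41 with Y27632 (limma adjusted p = 4.15e-05). Its relative Thbs2 rose under both (0.69 and 0.43, limma adjusted p = 4.97e-09 and 1.04e-06).

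Of 7 genes for activation, anchoring and uptake, 1 was higher and 4 lower under blebbistatin, and 2 were higher and 0 lower under Y27632, with medians of -0.19 and -0.08. Furin, Pcsk5 and Pcsk6, convertases of the kind that remove propeptides, fell under blebbistatin (-0.19, -0.28 and -0.53, limma adjusted p = 0.000957, 0.0184 and 3.81e-07). The convertase Pcsk7 was called higher under Y27632 (0.16, limma adjusted p = 0.0116). Its blebbistatin value of -0.10 did not pass the test (limma adjusted p = 0.0787). Sdc1 was the gene higher under blebbistatin (0.41, limma adjusted p = 3.02e-06). Sdc4, the cell-surface proteoglycan syndecan-4, fell under blebbistatin (-0.28, limma adjusted p = 2.40e-05) and rose under Y27632 (0.35, limma adjusted p = 7.46e-05).

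**Figure D3:**
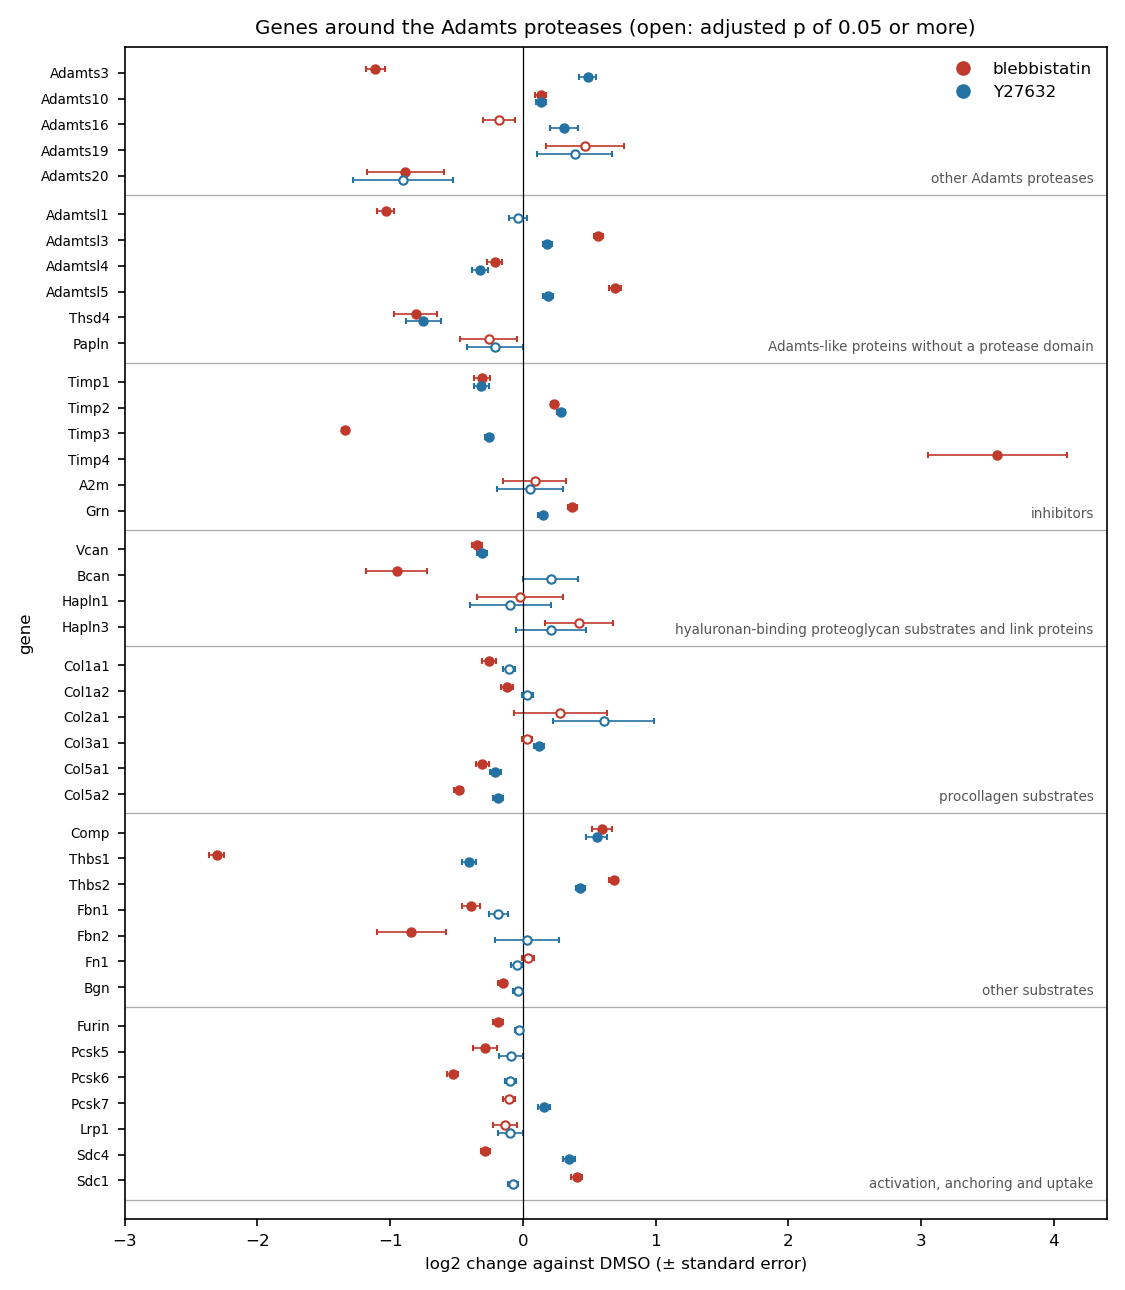
Log2 change against DMSO (horizontal axis, points with standard errors from limma) for the tested genes of 7 lists around the Adamts proteases, under blebbistatin and Y27632. Open circles did not pass an adjusted p of 0.05. Adamts3 and Sdc4 lie to the left under blebbistatin and to the right under Y27632, and Thbs1 lies farthest left at -2.31. Timp4 under blebbistatin lies farthest right, but it had only 2, 0 and 3 reads with DMSO. Its position depends on the pseudocount and is not to be read as a fold.

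The chromatin lists hold the authors' own values, a log2 fold between group means and an FDR, with no values per library. Nothing was therefore tested here, and only sites that passed the authors' threshold are listed. The names of the lists from the doxycycline experiment state a cut on fold as well as on FDR. A site with a smaller change would not be listed there. Each site carries the gene of the nearest transcription start, and whether it acts on that gene was not tested. The 56 entries fell into 34 places on the genome, of which 14 were in at least 2 of the 5 lists. The same share over all listed sites was not counted, so this shows nothing particular to the Adamts genes. Some lists also share libraries. The ATAC lists share those with DMSO. The doxycycline list shares those with doxycycline alone with the list of blebbistatin with doxycycline. It shares those with neither drug with the list of blebbistatin without doxycycline. Adamts5 had 24 entries in 14 places and Adamts6 had 17 in 9. Adamts12 had 7, Adamts2 had 4, Adamts15 had 2, and Adamts1 and Adamts9 had 1 each. Adamts4, Adamts7 and Adamts14 had none listed.

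All 44 entries in the 4 inhibitor lists were lower with the inhibitor. As background, 98.2% of all sites in the ATAC blebbistatin list were lower and 1.75% higher, and 85.0% were lower in the ATAC Y27632 list. The shares lower and higher were 99.0% and 0.975% when blebbistatin was given without doxycycline, and 99.8% and 0.221% when it was given with it. The Adamts entries numbered 5, 2, 11 and 26 in those lists. Their median log2 folds were -1.69, -1.40, -1.29 and -1.25, beside -1.59, -1.34, -1.18 and -1.13 for all sites of each list. The Adamts entries had median distances to the start of 279, 152, 180 and 184 kb, where the lists' medians were 40.9, 43.3, 44.8 and 44.5 kb. These medians mostly describe Adamts5 and Adamts6, with 21 and 15 of the 44 entries, and places found in several lists count repeatedly. The 4 Adamts12 entries lay 59.2 to 81.0 kb from its start and the Adamts1 entry 9.5 kb. Adamts2, Adamts9 and Adamts15 had 1 entry each, at 100, 295 and 126 kb.

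Adamts5 sites spread upstream of the gene, from 9.97 to 343 kb before its start (chr16:85910991-86243746), and all were intergenic. Its 21 entries in inhibitor lists had log2 folds of -1.72 to -1.01. The site at chr16:86180132-86180412, shown above with its TEAD motif, was lower under blebbistatin in the ATAC list (-1.39, FDR 0.0265), without doxycycline (-1.36) and with doxycycline (-1.72). The site at chr16:86243593-86243698, also shown above, had -1.72 (FDR 0.0206), -1.32 and -1.01 in the same order. Another site, chr16:85950410-85950810, was lower under Y27632 (-1.12, FDR 0.0484). At overlapping coordinates it was lower under blebbistatin without (-1.49) and with doxycycline (-1.27), and higher with doxycycline alone (1.12). The folds of -1.27 and 1.12 share the libraries with doxycycline alone, where a high value would push them in opposite directions. Each listed Adamts5 site under an inhibitor was lower, as were 85.0% to 99.8% of all sites in those lists. The direction of listed sites therefore says little about the fall of Adamts5 RNA, and a link between them was not tested.

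Adamts6 sites lay within later introns or beyond the gene's end, 173 to 255 kb after its start. The site with the motif at chr13:104542918-104543521 had a log2 fold of -1.69 under blebbistatin (FDR 0.00941) and -1.67 under Y27632 (FDR 0.000453) in the ATAC lists. It had -1.29 without and -1.38 with doxycycline under blebbistatin. In intron 21 of 24, the site at chr13:104468063-104468367 had -1.65 in the ATAC list (FDR 0.0196), -1.24 without and -1.46 with doxycycline, and 1.10 for doxycycline itself. The folds of -1.46 and 1.10 share the libraries with doxycycline alone and are not independent. The RNA of Adamts6 changed little, with log2 changes of -0.16 and 0.02. Of its 15 lower entries, 2 were in the ATAC blebbistatin list and 1 in that of Y27632. The rest came from the doxycycline experiment, which has no RNA, 5 without and 7 with doxycycline. Places found in several lists count repeatedly among them.

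Adamts9 had 1 site, chr6:93237968-93238223, 295 kb upstream of its start (-1.71 under blebbistatin, FDR 0.00408). The only listed place for Adamts15, at chr9:30794716-30795275 and 126 kb beyond its start, was higher with doxycycline (1.0, FDR 2.87e-05) and lower with blebbistatin without doxycycline (-1.09, FDR 0.00431). For Adamts15 the RNA under blebbistatin was higher and this site was lower, in separate experiments. Adamts1 had 1 site, chr16:85793509-85793666, at the end of the gene (-1.01 under blebbistatin with doxycycline, FDR 0.000266).

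With doxycycline alone 11 of 12 Adamts entries were higher, where 95.8% of that list's 7613 sites were (4.15% were lower), with a median log2 fold of 1.17 beside 1.15 for the list. The Adamts12 promoter printed above lay within one of them, chr15:11064485-11064956, with a log2 fold of 1.38 (FDR 9.02e-09). Its centre is 52 bp before the start by the authors' annotation, and no Adamts12 entry of an inhibitor list lies there. Deeper in Adamts12, in intron 2 of 23, sites at chr15:11133857-11134176 and chr15:11145682-11145841 were higher with doxycycline (1.37 and 1.57). They were lower when blebbistatin was added to doxycycline (-1.10 and -1.74). Both comparisons use the same libraries with doxycycline alone. A high value in those libraries would push the folds in opposite directions, so the reversal is not independent evidence. Adamts2 held the 1 lower entry, chr11:50707303-50707656 in intron 3 of 21 (-1.35, FDR 1.58e-05), while another site of that intron was higher (chr11:50702333-50702566, 1.08). The doxycycline list names blebbistatin without doxycycline as its reference group. At 13 sites shared with another list the reference values differed from the group with neither drug by a mean of -0.13 (SD 0.0044) and from the named group by 1.12 (SD 0.184), so they were read as the group with neither drug.

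**Figure D4:**
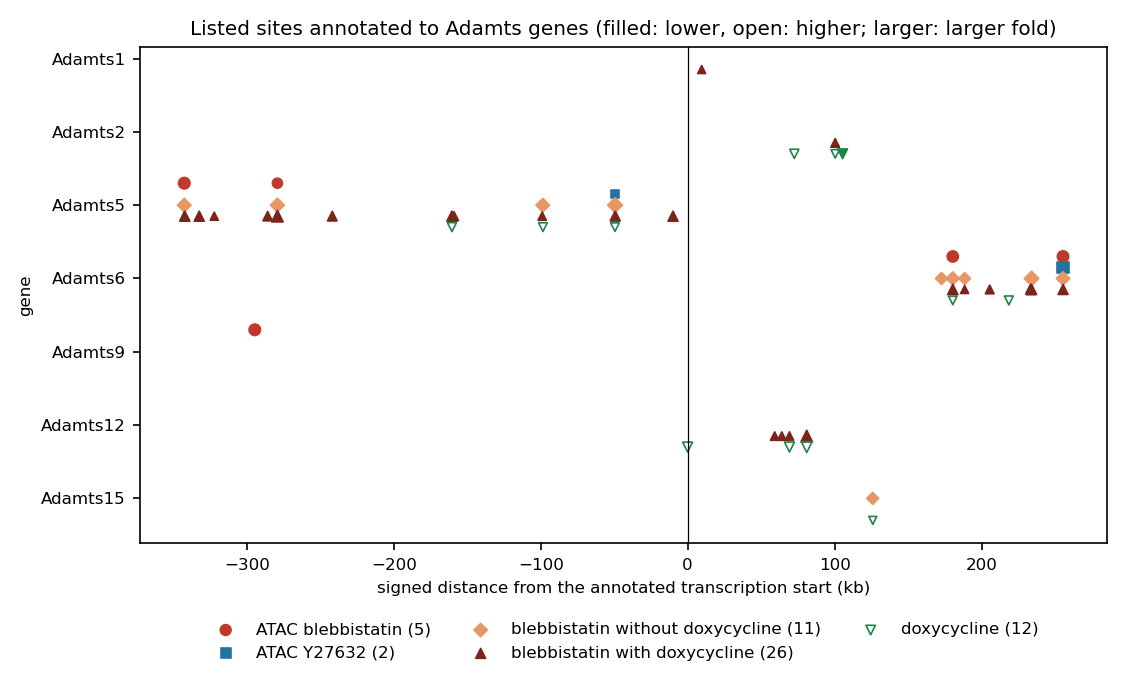
Listed chromatin sites by signed distance from the annotated transcription start in kb (horizontal axis) for each gene with a site (vertical axis). Symbols and colours mark the list, filled symbols are lower and open symbols higher, and larger symbols have larger folds. Adamts5 sites lie up to 343 kb upstream, Adamts6 sites 173 to 255 kb downstream, and the Adamts12 site at 0 is its promoter.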

How the data were processed

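Gene members and gene lists were chosen with earlier results of these data known. For RNA the authors deposited a normalised signal, in which each library's read counts had been scaled by a single factor. That follows from the values themselves: 100% of values above 0 were whole multiples of 1 step (tolerance 0.1 read), and the DMSO reads recovered from the 2 tables had 0 differences. Log2 fold changes and p-values of the authors' deposited tables were used only where named. Per the submitters' processing notes, HISAT2, featureCounts, DESeq2, Bowtie2, SAMtools, Picard, MACS2, DiffBind and HOMER were used with mm10, in roles and versions not given in the sources used here. The site lists hold log2 group means, log2 folds, p-values and FDR that the authors deposited; a site's distance to the nearest start is a score of their annotation, per the file headers.

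Within each table, genes whose normalised counts averaged 10 or more over its 6 libraries entered limma 3.58.1 (trend, two-sided, R 4.3.3) on log2(normalised count + 1), which understates changes of low genes. To compare the inhibitors, recovered reads of the 9 libraries were tested with edgeR 4.0.16 (TMM, quasi-likelihood), since the tables were normalised separately. Adjusted p-values are Benjamini-Hochberg values over all genes tested, called under 0.05, and intervals are 95%. The tests were checked on simulated data. Named genes are the 10 members, the listed pathway genes and, per member, the 3 genes outside the members closest by Pearson's r of log2(CPM + 1). Alternatives were DESeq2 1.42.0, edgeR or limma in place of each other, other size factors, pseudocounts of 0.5 and 5, minimum means of 0 and 50, each library left out and a replicate block, and for sites an FDR of 0.01, a distance limit of 100000 bp and an overlap of 50%. Exon lengths were not used, so levels of different genes were not compared.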

Additional observations from a re-analysis of the deposited data

Results flagged for a closer look

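Adamts3, the third procollagen aminopropeptidase, was called in opposite directions by the inhibitors: limma gave log2 changes of -1.11 with blebbistatin and 0.49 with Y27632. The direct difference, blebbistatin minus Y27632, was -1.59 (edgeR adjusted p = 1.10e-10). Its reads were 663, 611 and 505 with DMSO, 274, 359 and 328 with blebbistatin and 1181, 1059 and 913 with Y27632.

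Sdc4 was also called in opposite directions, with log2 changes of -0.28 and 0.35 and a direct difference of -0.62 (edgeR adjusted p = 4.23e-08).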

How the results depend on the processing

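Of 410 values of single genes under the alternatives, 392 kept their direction and their side of the threshold, 11 lost the call, 1 gained it and 6 changed sign. The sign changes were all in values that did not pass the test. Leaving out 1 library gave log2 changes of -0.0185 to 0.205 for Adamts4 under blebbistatin, -0.0207 to 0.0451 for Adamts6 and -0.0558 to 0.00067 (0.00056 without Y27632 library 1) for Adamts14 under Y27632, and -0.0183 to 0.0456 for Adamts2 between the inhibitors. The difference for Adamts12 was 0.0014 with limma on log2(CPM + 1). The lost calls were of Adamts2 and Adamts6, and the gained call was the Adamts2 difference with limma on log2(CPM + 1) (0.08, adjusted p = 0.0360), where that of Adamts6 was lost (-0.10, adjusted p = 0.165). The cause was not tested.

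Members called ranged from 7 to 9 under blebbistatin, 7 to 8 under Y27632 and 7 to 8 between them when 1 library was left out, beside 6994 to 7394, 4304 to 4839 and 7166 to 7985 of all genes. With DESeq2 they were 8, 8 and 7, beside 6837, 4263 and 7068 genes. Same-numbered libraries showed no shared deviation (correlations -0.061 to 0.022 and -0.095 to -0.001), and the main tests used no pairing. With 3 libraries per group this check cannot show whether samples were paired. With a replicate block 8, 8 and 8 members and 7604, 4633 and 7700 genes were called. Under the block Adamts6 was not called under blebbistatin (-0.16, limma adjusted p = 0.0546).

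At an FDR of at most 0.01 the Adamts entries fell from 5 to 2 in the ATAC blebbistatin list from 2 to 1 in that of Y27632 and from 11 to 8 in that of blebbistatin without doxycycline, and stayed at 26 and 12 in the other 2 lists. Within 100000 bp of the start 0, 1, 9, 6 and 3 entries were left in the ATAC blebbistatin, ATAC Y27632, blebbistatin with doxycycline, doxycycline and blebbistatin without doxycycline lists. The shares of all listed sites left at these 2 cuts were not counted, so these numbers show nothing particular to the Adamts genes. Entries found in another list numbered 36 at both overlaps, and the share over all listed sites was not counted. Depth limits Adamts15 with DMSO, at 67 to 82 reads, and the depth of the site lists is unknown.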
